A study of Mus musculus with 8 samples.

Results

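The PEA3 group of ETS transcription factors consists of Etv1, Etv4 and Etv5. The 3 genes were taken by symbol from a table of 24787 genes; all 3 were found, and all 3 were among the 11731 genes with enough signal to be tested. The samples were 8 RNA libraries made from cultured 4T1, which is a mammary carcinoma line of the mouse. In 4 libraries, labelled WT, the cells carried a control shRNA (non-targeting, named NT in the table), and in 4, labelled Etv5 knockdown, an shRNA against Etv5 (named sh2). All libraries of a group bear 1 construct name, so each group rests on a single shRNA, and the labels do not say if replicates came from separate cultures. The knockdown was therefore aimed at 1 of the 3 paralogues, and the question here was how that gene and its closest relatives stood, library by library and against each other.

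ETS factors share a winged helix-turn-helix domain, the ETS domain, that binds DNA around the letters GGAA. PEA3 factors are activators placed at the end of receptor tyrosine kinase signalling: FGF and ERBB receptors act through RAS and ERK to raise both the transcription and the activity of these factors. Capicua (CIC) is a repressor of their genes that ERK signalling relieves, and the ubiquitin ligase COP1, brought to some of its substrates by Tribbles pseudokinases, degrades their proteins. In mammary tissue the group is known for roles in branching growth and, in tumours, for activating matrix metalloproteinase genes and invasion.

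The next sequences show how alike the paralogues are where they are most alike, which bears on whether a read or an shRNA can tell them apart. They are the 90 coding bases with the most letters common to all 3 genes, 74 in number, read from GENCODE M21 transcripts on mm10. Each stretch spans the last coding exon and the one before it, exons 12 and 13. Capitals mark positions at which not all 3 agree.
Etv5, coding bases 1285 to 1374, chr16:22383629-22386783, minus strand: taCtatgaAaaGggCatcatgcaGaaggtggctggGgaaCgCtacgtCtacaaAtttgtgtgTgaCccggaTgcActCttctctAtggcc
Etv4, coding bases 1210 to 1299, chr11:101770528-101770995, minus strand: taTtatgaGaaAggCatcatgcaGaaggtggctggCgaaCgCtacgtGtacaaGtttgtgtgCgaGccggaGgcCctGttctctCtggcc
Etv1, coding bases 1186 to 1275, chr12:38861362-38865610, plus strand: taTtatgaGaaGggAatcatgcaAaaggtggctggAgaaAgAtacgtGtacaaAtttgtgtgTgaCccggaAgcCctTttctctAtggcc
Within this stretch Etv5 differed from Etv4 at 12 positions and from Etv1 at 11, and Etv4 from Etv1 at 12. Over the whole aligned coding sequence the identity was 68.4% between Etv5 and Etv1, 62.9% between Etv4 and Etv1 and 61.3% between Etv5 and Etv4.

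The paralogues lie on separate chromosomes. Etv5 (ENSMUSG00000013089.15) occupies chr16:22381309-22439719 on the minus strand, Etv4 (ENSMUSG00000017724.14) chr11:101769742-101785371 on the minus strand and Etv1 (ENSMUSG00000004151.17) chr12:38779380-38870484 on the plus strand. Their longest transcripts have 13 exons each but differ in length and base composition: 3975 bases at 51.8% GC for Etv5, 2395 bases at 58.7% GC for Etv4 and 6576 bases at 39.8% GC for Etv1. No stretch of 50 bases was common to any pair of these transcripts. Of 20 bases, a length nearer to that of an shRNA target, 5 Etv5 stretches also occur in Etv4 and 4 in Etv1, and none is common to Etv4 and Etv1. The target of the shRNA is not given in the sources used here. Of the 3926 stretches of 50 bases in Etv5, 1053 (26.8%) also occur in Gm4798, a processed pseudogene at chr10:71704290-71705988. Of the 6527 stretches of 50 bases in Etv1, 1137 (17.4%) occur in another processed pseudogene, Gm5454. With stretches of 20 bases these counts are 1414 of 3956 (35.7%) for Etv5 and 1306 of 6557 (19.9%) for Etv1. Neither pseudogene has a row in the table. How the authors' counting treated reads that fit a gene and its pseudogene is not given in the sources used here, so the Etv5 and Etv1 values are uncertain to that extent. No Etv4 stretch of 50 bases occurred in another gene. Of 20 bases, Etv4 stretches did occur in other genes, among them Etv5, Fli1 and Gm4881 with 5 each.

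Promoter sequences were looked up because Cic, whose product binds such sequences, is among the genes measured. Of the 3 symbols, 2 matched RefSeq promoters on GRCm38.p6, Etv1 and Etv5, with 2 start sites each; each window of 300 bases runs from 250 before the start to 50 after it. Both strands were searched for the ETS core GGAA, for TGAATG, and for the CIC octamers TGAATGAA, TGAATGGA, TCAATGAA and TCAATGGA, of which the first pair contains TGAATG. The core GGAA is present in 96.0% of all 32851 promoters, TGAATG in 12.7% and a CIC octamer in 3.84%. The Etv1 windows, chr12:38779832-38780131 and chr12:38783461-38783760, hold 5 and 1 GGAA and neither of the other motifs. The Etv5 window chr16:22439521-22439820 holds no match to any. The window of the other Etv5 start, chr16:22438319-22438618, holds 6 GGAA, no octamer and 3 matches to TGAATG, a number reached by 56 promoters (0.17%). The shorter motif was chosen after this sequence had been viewed, and a match describes letters only. The 137 bases that hold the matches are printed, with TGAATG or its reverse complement CATTCA in capitals.
Etv5, chr16:22438482-22438618, minus strand: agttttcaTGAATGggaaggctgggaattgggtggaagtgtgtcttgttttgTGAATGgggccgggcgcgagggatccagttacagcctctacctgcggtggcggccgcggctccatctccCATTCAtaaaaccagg
The matches begin 242, 198 and 129 bases before the start.

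Each gene's value was read as its mean coverage per base after scaling to depth, below called its coverage value. On that reading levels can be set beside each other between genes, within the pseudogene limit given above for Etv5 and Etv1. In control cells Etv4 was the most abundant PEA3 transcript at 48.1 ± 3.13 (SD, n = 4), followed by Etv5 at 14.1 ± 1.65 and Etv1 at 8.87 ± 1.14, and the ranges of the 3 did not overlap. Among 26 ETS genes in the table, Etv4 stood at rank 2, Etv5 at 7 and Etv1 at 11. Elk3, a ternary complex factor, led at 55.1 ± 2.78, and Ets1, a founding member of the family, followed Etv4 at 43.3 ± 4.63. The Etv4 range overlapped that of Ets1 and not that of Elk3. Etv5 overlapped its neighbours Gabpa, at a mean of 15.7, and Elf2, at 11.4, and Etv1 overlapped Elf3, at 9.11, and Etv3, at 7.66. Across the 8 libraries, between 87.2% and 92.0% of tested genes lay below Etv4, 58.4% to 67.7% below Etv5 and 40.8% to 54.1% below Etv1.

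Etv5, the targeted gene, was at 15.2, 15.1, 11.7 and 14.4 in control replicates 1 to 4. With the Etv5 shRNA it was at 13.04, 11.2, 7.52 and 12.7. Replicate 3 was the lowest library of each group, and the groups overlapped because control replicate 3 lay below Etv5 shRNA replicates 1 and 4. The mean with the Etv5 shRNA was 11.1 ± 2.52 (SD, n = 4), 21% under the control mean (exact two-sided permutation test, p = 0.0857, where 0.0286 is the smallest p that 4 against 4 libraries can give). On the log2(value + 1) scale the limma fold change was −0.33, with a 95% interval from −0.76 to 0.09 and an adjusted p of 0.819. Without Etv5 shRNA replicate 3, which stands apart across the transcriptome, the mean was 12.3 ± 0.962 (SD, n = 3), 12.5% under control (exact permutation p = 0.143). The limma fold change was then −0.17, with an interval from −0.42 to 0.07 and an adjusted p of 0.422. The check of the label by its target was thus a difference in the labelled direction that did not pass the test, and every direction below is one between libraries labelled control and libraries labelled Etv5 shRNA.

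Etv4, which the shRNA was not directed against, was at 46.1, 49.6, 51.7 and 44.9 in control replicates 1 to 4. With the Etv5 shRNA it was at 40.4, 34.8, 36.3 and 43.7. Every Etv5 shRNA library lay below every control library, and replicate 3 was not the lowest. Such a separation downwards was found for 7.58% of tested genes. The mean with the Etv5 shRNA was 38.8 ± 4.07 (SD, n = 4), 19.3% lower (exact two-sided permutation test, p = 0.0286, the smallest possible). Without replicate 3 it was 39.6 ± 4.53 (SD, n = 3), 17.5% lower (exact permutation p = 0.0286), beside 10.5% of tested genes that separate downwards. In the limma fit over all genes the Etv4 fold change of −0.31 had an interval from −0.59 to −0.02, an unadjusted p of 0.0386 and an adjusted p of 0.651, and 7.09% of tested genes had an unadjusted p under 0.05. Without replicate 3 its fold change was −0.28 (limma adjusted p = 0.175). Etv4 separated the groups library by library and was not called over all genes. When libraries were scaled by median of ratios in place of the deposited scaling, the Etv4 difference in coverage value shrank from −9.27 to −3.69 (exact permutation p = 0.429), and without any 1 control library the exact p was 0.0571.

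Etv1, the least abundant of the group, was at 9.81, 8.46, 7.45 and 9.77 in control replicates 1 to 4. With the Etv5 shRNA it was at 8.56, 8.16, 3.52 and 6.86. The groups overlapped, and replicate 3 with the Etv5 shRNA lay far below the other 7 libraries. The mean with the Etv5 shRNA was 6.78 ± 2.29 (SD, n = 4), 23.6% lower (exact two-sided permutation test, p = 0.143). Without replicate 3 it was 7.86 ± 0.892 (SD, n = 3), 11.4% lower (exact permutation p = 0.229). The limma fold change was −0.40, with an interval from −0.95 to 0.16 (adjusted p = 0.855), and −0.15 without replicate 3 (adjusted p = 0.514).

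**Figure D1:**
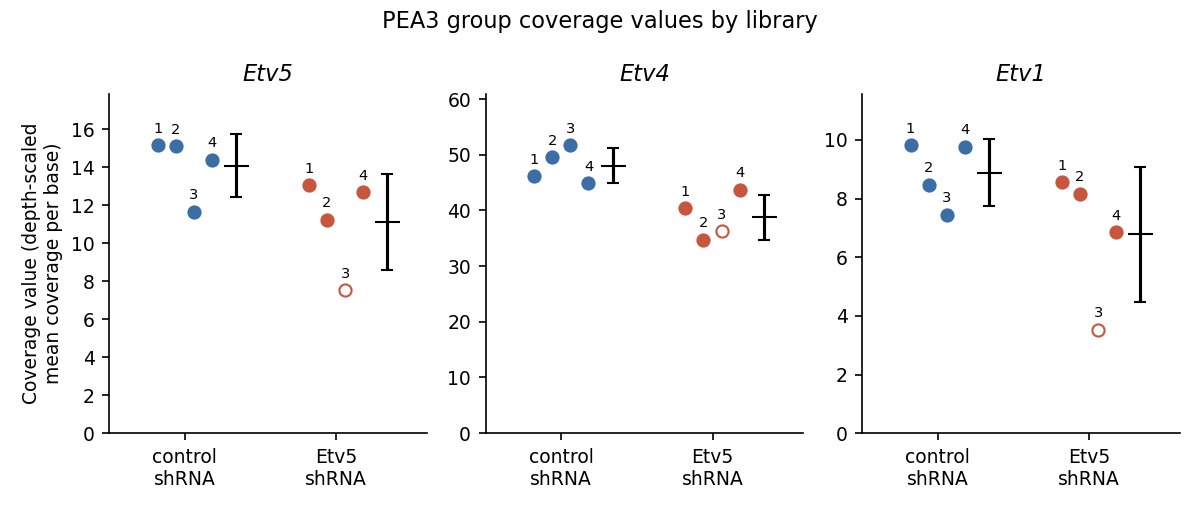
Coverage value of Etv5, Etv4 and Etv1 in each of the 8 libraries, by group; numbers are replicates, bars the mean ± SD, and the open circle is Etv5 shRNA replicate 3. The groups separate for Etv4 and overlap for Etv5 and Etv1.

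None of the 3 paralogues was called by limma (adjusted p under 0.05), over 8 libraries or without replicate 3. Among all tested genes 0.494% were called over 8 libraries and 3.15% without replicate 3, so 0 of 3 is near the background. At an unadjusted p under 0.05 limma counted 1 of the 3, Etv4. Over the 8 libraries 15.6% of tested genes had a lower fold change than Etv5, 18.6% a lower one than Etv4 and 10.5% a lower one than Etv1. The median fold change of all tested genes was −0.11. Without replicate 3 these shares were 20.6%, 10.4% and 23.1%, and the median of all genes was −0.00. In cultures, a lower level in a library cannot be told apart into fewer cells that hold the transcript and less of it per cell.

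Within each library the paralogues were also set against each other, since a ratio does not depend on how the library was scaled. The Etv5 to Etv4 ratio, of the targeted gene to the most abundant one, was 0.329, 0.305, 0.225 and 0.321 in the controls and 0.323, 0.323, 0.207 and 0.290 with the Etv5 shRNA. Replicate 3 was again the lowest of each group, and the other 3 of each group lay between 0.290 and 0.329. The means were 0.295 ± 0.0473 and 0.286 ± 0.0544 (SD, n = 4 each), a log2 difference of −0.05 (exact permutation p = 0.629, 0.686 adjusted over the 3 ratios). The 95% interval of that difference, from inverting the same test, ran from 0.633-fold to 1.43-fold. Without replicate 3 the mean with the Etv5 shRNA was 0.312 ± 0.0188 (SD, n = 3) and the interval 0.809-fold to 1.95-fold (exact permutation p = 0.8286).

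The Etv5 to Etv1 ratio was 1.54, 1.78, 1.57 and 1.47 in the controls and 1.52, 1.38, 2.13 and 1.85 with the Etv5 shRNA. Here replicate 3 with the Etv5 shRNA was the highest library, and the groups overlapped. The log2 difference was 0.10, with an interval from 0.774-fold to 1.45-fold (exact permutation p = 0.571, adjusted 0.686), and −0.02 without replicate 3 (exact permutation p = 0.914). The Etv1 to Etv4 ratio was 0.213, 0.171, 0.144 and 0.218 in the controls and 0.212, 0.235, 0.0972 and 0.157 with the Etv5 shRNA. Its log2 difference was −0.15, with an interval from 0.448-fold to 1.62-fold (exact permutation p = 0.686), and 0.11 without replicate 3 (p = 0.686, the same exact test). No ratio differed between groups beyond the spread of its libraries. In these data the targeted gene was not detectably lower relative to Etv4 or Etv1, although the intervals are wide.

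**Figure D2:**
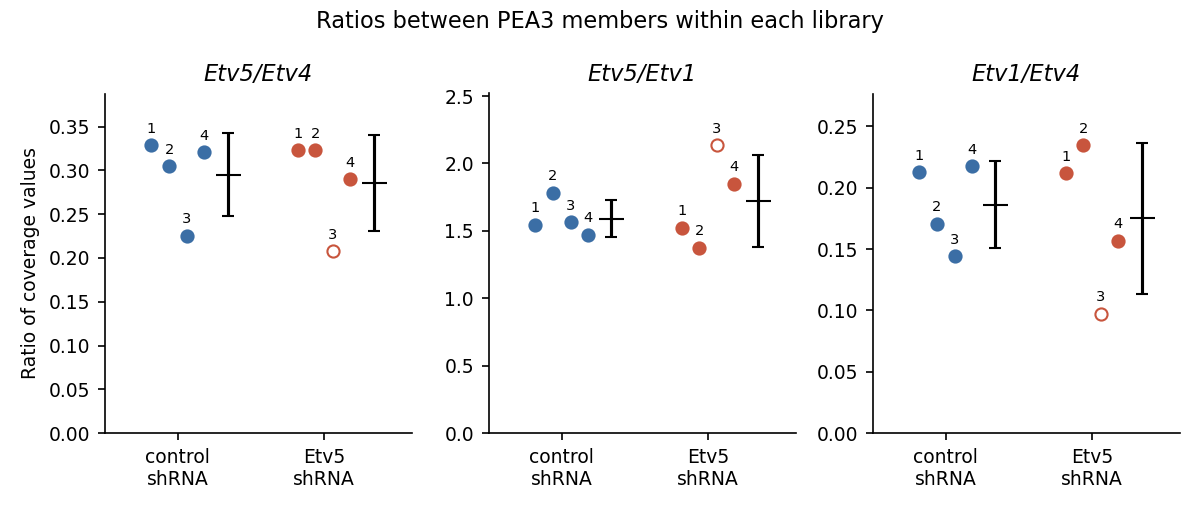
Ratios of coverage values between pairs of paralogues within each library, on linear axes that start at 0, with replicate numbers; bars are the mean ± SD and the open circle is Etv5 shRNA replicate 3. The groups overlap for every pair, and replicate 3 is the extreme Etv5 shRNA library in each.

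The summed coverage of the 3 paralogues was 71.0 ± 1.67 in controls, from 69.1 to 73.1, and 56.7 ± 7.45 with the Etv5 shRNA, from 47.3 to 63.3 (SD, n = 4 each). The sums did not overlap, and Etv4 alone did not either, beside 7.58% of single tested genes that separate downwards over 8 libraries. That share is not one of sums of 3 genes. The separation of the sums was lost under median-of-ratios scaling, where Etv5 shRNA replicate 3 had a factor of 0.678 and the groups overlapped. Without replicate 3 the second mean was 59.8 ± 4.94 (SD, n = 3). Etv4 made up most of this sum, 67.7% ± 3.81 in controls and 68.8% ± 5.66 with the Etv5 shRNA. The Etv5 share was 19.8% ± 2.26 and 19.4% ± 2.39, and the Etv1 share 12.5% ± 1.75 and 11.8% ± 3.39. Each share overlapped between groups.

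Replicate 3 with the Etv5 shRNA departed from the other libraries unequally for the 3 paralogues. In that library coverage was lower for longer transcripts across the transcriptome, and Etv1, Etv5 and Etv4 come in that order of length. Relative to the median library, on the log2(value + 1) scale, Etv1 stood at −1.04, Etv5 at −0.70 and Etv4 at −0.28. The trend over all genes, read at each gene's own length, was −1.07, −0.63 and −0.18, close to those deviations. Control replicate 3 had a weaker trend of the same direction, −0.31 at the length of Etv1, −0.06 at Etv5 and 0.11 at Etv4, where the deviations were −0.14, −0.13 and 0.22. With the trend removed from every library, the fold changes of Etv5, Etv4 and Etv1 were alike at −0.19, −0.23 and −0.20, with limma adjusted p of 0.465, 0.334 and 0.354, in a fit that called 0.997% of tested genes. With the trend removed and replicate 3 also left out they were −0.19, −0.25 and −0.24, with limma adjusted p of 0.205, 0.0777 and 0.0739. In those settings, as in all 20 fits run, the 3 fold changes were negative. The fits reuse the same libraries, so their common sign does not amount to 20 separate checks.

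**Figure D3:**
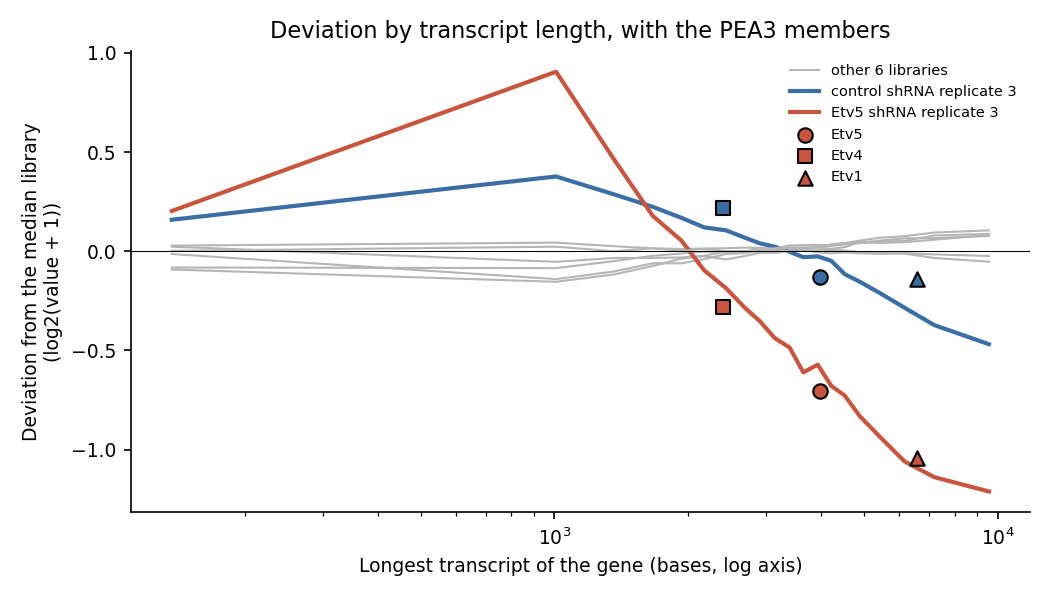
Median deviation of tested genes from the median library, on the log2(value + 1) scale, in 20 bins of transcript length (log axis), with control replicate 3 in blue, Etv5 shRNA replicate 3 in red and the other 6 libraries in grey. Symbols are Etv5, Etv4 and Etv1 in both replicates 3; the red line declines over the lengths of the paralogues and their red symbols lie near it, at −0.70, −0.28 and −1.04.

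Of 23 ETS genes outside the PEA3 group, 14 were tested, and the other 9, which include Erg, Fli1, Fev, Etv2 and Spic, were at or near 0. Over the 8 libraries limma called 1 of the 14, Ehf, as lower and none as higher; at that fit 0.486% of tested genes were called lower and 0.00852% higher. Ehf, an epithelial ETS factor, was between 2.01 and 2.71 in controls and between 0.0372 and 0.165 with the Etv5 shRNA. It lay under the filter value of 0.5 in every Etv5 shRNA library, so it was tested only through its control values. Its log2 fold change was −1.60 (SE 0.106, limma adjusted p = 0.000377). It was called in each of the 20 settings, which reuse the same libraries. At this low level the size depends on the pseudocount, and with 0.1 in place of 1 it was −3.61. Elf3, another epithelial ETS factor, was at 9.11 ± 1.84 and 5.92 ± 0.786 (SD, n = 4 each), with an adjusted p of 0.412 in limma. Without replicate 3 it was called, at 5.56 ± 0.395 (SD, n = 3, limma adjusted p = 0.0448). With the length trend removed over 8 libraries Elf3 was not called (limma adjusted p = 0.124), and it was called in 3 of 20 settings.

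The other ETS genes showed how far the PEA3 fold changes stood from those of their relatives. Over 8 libraries the median log2 fold change of the 14 was −0.31 and all 14 were negative, so Etv5 at −0.33, Etv4 at −0.31 and Etv1 at −0.40 lay in their middle or lower part. The median of all tested genes was −0.11 in that fit and −0.00 without replicate 3. What share of all tested genes was negative is not given here, so the counts of negative ETS genes have no background. Without replicate 3 the median of the 14 was 0.07 and 4 of 14 were negative. Ehf and Elf3 then had lower fold changes than Etv4, and Ehf, Elf3 and Etv3 lower ones than Etv5 and Etv1. The abundant Elk3 and Ets1 were at 0.09 and 0.06 without replicate 3 (limma adjusted p = 0.567 and 0.787), and Ets2, a direct ERK substrate, at 0.15 (limma adjusted p = 0.418). With the length trend removed over 8 libraries the median of the 14 was −0.16 and 10 of 14 were negative. In that fit 5 of the 14 lay below Etv5 at −0.19, 3 below Etv4 at −0.23 and 4 below Etv1 at −0.20. The difference between the PEA3 genes and the other ETS genes was not tested.

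**Figure D4:**
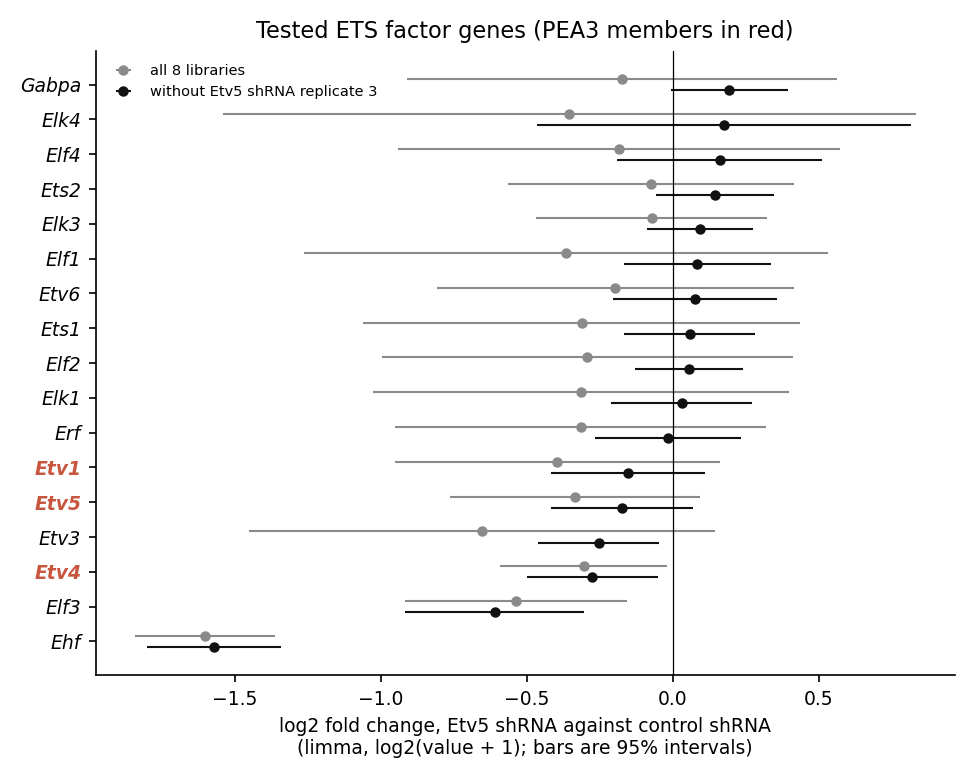
Log2 fold change, Etv5 shRNA against control shRNA, of each tested ETS gene with its 95% interval from limma, over 8 libraries in grey and without Etv5 shRNA replicate 3 in black. Etv5, Etv4 and Etv1 lie at −0.33, −0.31 and −0.40 over 8 libraries and at −0.17, −0.28 and −0.15 without that library.

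The genes known to act upstream of the PEA3 factors gave few calls. Of 26 genes from growth factor receptors to ERK, 22 were tested and limma called 0, over 8 libraries or without replicate 3, beside 0.494% and 3.15% of all tested genes; their median fold change was −0.15 and 0.09. Mapk3, which encodes ERK1, was at 69.8 ± 7.13 in controls and 52.2 ± 3.63 with the Etv5 shRNA (SD, n = 4 each), with a limma adjusted p of 0.412, and of 0.0540 without replicate 3; it is named for its values, which had been seen. Of the CIC complex, none of the 3 genes was called by limma in either fit. Cic was at 16.6 ± 4.24 in controls and 12.9 ± 5.24 with the Etv5 shRNA, where replicate 3 held 5.39; without it the mean was 15.4 ± 1.88 (SD, n = 3, limma adjusted p = 0.874).

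Of 10 tested genes for the turnover of PEA3 proteins, limma called 0 over 8 libraries, beside 0.494% of all tested genes. Without replicate 3 it called 1, Trib2, as lower; of all tested genes 2.06% were called lower in that fit and 1.09% higher. Trib2, a Tribbles pseudokinase, was at 8.05 ± 0.367 in controls and between 2.76 and 5.09 with the Etv5 shRNA. Its fold change without replicate 3 was −0.67 (SE 0.0956, limma adjusted p = 0.00702), and its limma adjusted p over 8 libraries was 0.147. Trib2 was called in 7 of 20 settings, among them removal of the length trend over 8 libraries (limma adjusted p = 0.0131). Cop1, the ligase subunit that recognises substrates, was level, at 5.64 ± 0.327 and 5.63 ± 0.999 (SD, n = 4 each, limma adjusted p = 0.976). Of 9 tested cofactors and modifiers of PEA3 factors, such as the acetyltransferases Ep300 and Crebbp, limma called none in either fit. Of all tested genes 0.494% were called over 8 libraries and 3.15% without replicate 3, so these counts of 0 are near the background. The median fold changes of the 9 were −0.14 and 0.01, against −0.11 and −0.00 over all genes.

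Genes that report ERK output gave calls in both directions without replicate 3. Of 19 tested, limma called 1 lower and 0 higher over 8 libraries, and 2 lower and 1 higher without replicate 3, with median fold changes of −0.32 and 0.00. Over all tested genes 0.486% were called lower and 0.00852% higher in the first fit, and 2.06% lower and 1.09% higher in the second. Ier3, an early response gene, was at 91.9 ± 10.7 in controls and 45.6 ± 7.04 with the Etv5 shRNA (SD, n = 4 each; log2 fold change −1.001, SE 0.154, limma adjusted p = 0.0338). Its call was lost without any 1 library other than Etv5 shRNA replicate 3 (limma adjusted p between 0.0687 and 0.150), and under median-of-ratios scaling (0.0691), equal sums (0.152), removal of the length trend (0.101) and the replicate block (0.0847). The other 2 calls came without replicate 3. Lif, a cytokine, was lower at 9.005 ± 0.371 (n = 3) against 14.9 ± 1.62 in controls (limma adjusted p = 0.00851), and was not called over 8 libraries (0.368). With the length trend removed over 8 libraries Lif was called lower (limma adjusted p = 0.0416), and it was called in 5 of 20 settings.

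Spry1, a feedback inhibitor of receptor signalling, was the gene called higher without replicate 3, at 26.6 ± 0.675 (SD, n = 3) against 17.8 ± 1.15 in controls (log2 fold change 0.55, SE 0.0819, limma adjusted p = 0.00821). Over 8 libraries Spry1 was not called (limma adjusted p = 0.879), and replicate 3 held 12.004. With the length trend removed over 8 libraries it was not called either (limma adjusted p = 0.428), and it was called in 3 of 20 settings. Dusp6, the phosphatase that removes the activating phosphates of ERK, was at 67.5 ± 3.80 in controls. With the Etv5 shRNA it was at 13.4 in replicate 3 and between 54.9 and 59.6 in the others, below every control and not called by limma (adjusted p = 0.834, and 0.1604 without replicate 3). Over 8 libraries 7.58% of tested genes separated downwards in this way. Spry4 was at 3.17 ± 0.539 and 2.72 ± 1.13 (SD, n = 4 each), and at 3.28 ± 0.101 without replicate 3 (limma adjusted p = 0.854).

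Of 25 genes described as PEA3 targets, 19 were tested; limma called 2 lower and 0 higher over 8 libraries and 3 lower and 0 higher without replicate 3, beside 0.486% and 2.06% of all tested genes called lower. Median fold changes were −0.32 and −0.16, against −0.11 and −0.00 over all genes. The called genes were matrix metalloproteinases. Another tested metalloproteinase, Mmp14, lay in the other direction and was not called (log2 fold change 0.37, limma adjusted p = 0.814, and 0.297 without replicate 3). It was at 47.2 ± 1.46 in controls and between 50.8 and 94.0 with the Etv5 shRNA, without overlap. The share of tested genes that separate upwards is not given here. Mmp13, a collagenase, was at 6.08 ± 0.486 in controls and 1.05 ± 0.294 with the Etv5 shRNA (SD, n = 4 each, log2 fold change −1.80, SE 0.146, limma adjusted p = 0.000956). It was called in each of the 20 settings, which reuse the same libraries. Mmp3, stromelysin, was at 159 ± 18.7 and 79.2 ± 2.16 (limma adjusted p = 0.0124). It was called in 13 of 20 settings, and lost its call when any 1 library other than replicate 3 of either group was left out (limma adjusted p up to 0.0845), or under median-of-ratios scaling (0.176). Mmp9, a gelatinase, was called only without replicate 3 among the fits that leave out a library, at 80.4 ± 4.78 (n = 3) against 118 ± 9.20 (limma adjusted p = 0.0182). With the length trend removed over 8 libraries Mmp9 was not called (limma adjusted p = 0.0809), and it was called in 3 of 20 settings. The other tested targets, which include Spp1, Vim and Twist1, were not called by limma in either fit.

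**Figure D5:**
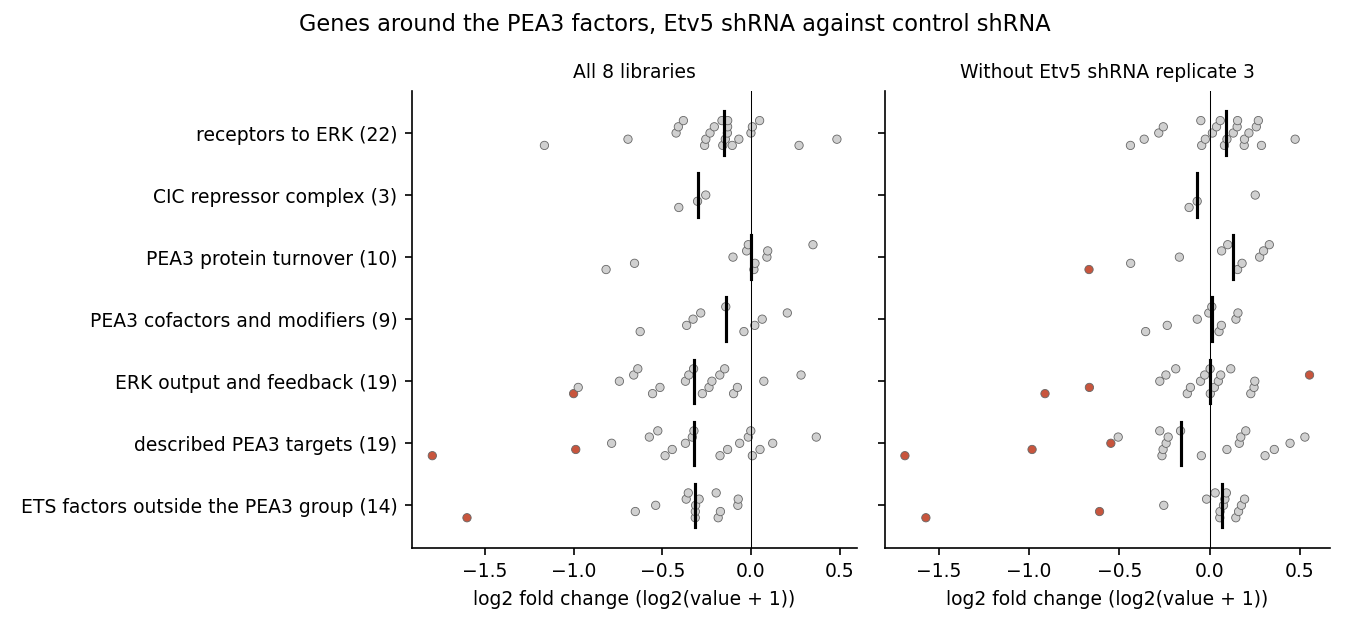
Log2 fold change of each tested gene in the lists around the PEA3 group, over 8 libraries at left and without Etv5 shRNA replicate 3 at right; red points were called by limma and vertical bars are list medians. Most genes were not called, and the list medians move towards 0 or above it without that library.

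The genes whose pattern over libraries was most like that of each paralogue were not the other paralogues. Likeness was the SD, over libraries, of the log2 ratio of gene to paralogue, smaller being more alike, among 7583 tested genes with a mean of at least 5. Over 8 libraries Nptxr (SD 0.0652), Tgm2, Scaf1, Zfp523 and Golga2 (0.0691) were nearest to Etv5, where Etv1 ranked 996 at 0.207 and Etv4 1936 at 0.259; the median gene was at 0.368. Nearest to Etv4 were Zfp768 (0.0504), Rnf181, Nit1, Dus3l and Vegfb (0.0639), and nearest to Etv1 were Ndrg3 (0.0587), Tmx4, Slc39a14, Gpr137b and Pnn (0.0717). For Etv4, Etv5 ranked 1777 at 0.259 and Etv1 4361 at 0.424, where the median gene was at 0.383. For Etv1, Etv5 ranked 962 at 0.207 and Etv4 3895 at 0.424, where the median gene was at 0.412. Without replicate 3 the nearest to Etv5 were Sh2d5 (0.0488), Irf2bpl, Hs1bp3, Ciz1 and Tgm2 (0.0575). Those nearest to Etv4 were then Ckap4 (0.0287), Yipf3, Leprot, Vrk3 and Irf8 (0.0432), and to Etv1 Cdc7 (0.0365), Rbm5, Tmx4, Tmem181b-ps and Il13ra1 (0.0586). Tgm2 for Etv5 and Tmx4 for Etv1 were in both sets of nearest genes. Those sets share 7 libraries, so this overlap is not a separate check. The nearest of 7583 genes have small SDs through their selection. These are descriptions over 8 or 7 libraries that share scaling and the length trend given above, and over 8 libraries the nearest genes had transcripts of 3596 to 5006 bases for Etv5, 1281 to 3041 for Etv4 and 3485 to 5488 for Etv1.

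Library sums of coverage values ran from 254792 to 390495 and genes above 0 from 13920 to 15379, with Etv5 shRNA replicate 3 at the highest sum and the fewest genes. Of 9 epithelial markers 7 were above 1 in every library, while Krt5 and Trp63 were below 1 in all. Of 10 leukocyte markers 9 were below 1 in every library, Cd68 being the exception, and Adgre1 and Cd3e were at 0 throughout; their summed level was 3.54 to 5.31 in controls, as against 3.05 to 3.72 with the Etv5 shRNA. Of 6 fibroblast markers 5 were below 1, with Dcn and Lum at 0 and sums of 2.71 to 3.60 and 0.641 to 2.55. The sixth, Pdgfra, was at 3.25 ± 0.474 in controls and 1.62 ± 0.745 with the Etv5 shRNA (SD, n = 4 each, limma adjusted p = 0.435). Its groups did not overlap, beside 7.58% of tested genes that separate downwards over 8 libraries. Pdgfra was called lower without replicate 3 (limma adjusted p = 0.0446) and with the length trend removed (0.0192). All 4 endothelial markers were below 1. The part of these markers in the PEA3 values was not tested.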

How the data were processed

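RNA was measured in 8 libraries, 4 per group, grouped by sample title. Per the labels' protocols RNA was isolated by either of 2 methods (which library had which is not given in the sources used here) and libraries came from the TruSeq RNA kit v2. Reads were aligned with STAR 2.7.10a to mm10, per the submitters' processing notes. Per the file headers, the deposited columns derive from coverage tracks; the values are a signal, read from the values themselves as depth-scaled mean coverage per base. The averaging program is not given in the sources used here. Depth in reads is unknown, so counting intervals are not given.

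The 11731 genes that reached 0.5 in 4 or more libraries were compared as log2(value + 1) by limma 3.58.1 (R 4.3.3) with an intensity trend, Benjamini-Hochberg adjustment over all of them and calls at an adjusted p under 0.05. Fits that left out a control library asked for as many libraries as controls remained. Such fold changes understate changes of low genes. Coverage values and within-library ratios were compared by exact two-sided permutation tests, the ratios adjusted over 3. P-values measure the spread between these libraries, which may be technical. The length trend was a lowess of span 0.3 on the longest GENCODE M21 transcript, available for 97.7% of rows. The 26 symbols turned into dates are not named. The limma step was tested on simulated data in which each gene had the same noise in every library. Those data held no length trend and no deviant library, so that test does not cover the effect of Etv5 shRNA replicate 3.

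The paralogues, the gene lists and the naming rule were chosen with earlier results of these data known. The rule took the 3 paralogues; for each, the 5 most alike genes; every called list member, up to 4 per direction; Cic, Cop1, Dusp6, Spry4, Ehf, Ets2 and Elf3; and the 3 most abundant ETS genes. Genes named outside it, such as Mapk3, Ep300, Mmp14, Pdgfra and Cdh1, were chosen after their values were seen. The settings tried are given at the end; array weights, quantile normalisation and the length correction were known from earlier work on these data.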

Additional observations from a re-analysis of the deposited data

Results flagged for a closer look

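The paralogues' shares, their ratios and a part of the named genes were screened for a library far from the other 3 of its group. Far meant a gap, relative to the group's range, above Dixon's 95% critical value. Of 52 groups of 4 libraries, 11 held one, where chance gives about 1 in 20, or 2.6. Many of these values come from the same library. Genes named after their values were seen, among them Mmp14, Ep300, Crebbp and Cdh1, were not in the screen, so the counts hold for the screened part only. For Mmp14, Etv5 shRNA replicate 3 was the highest library of its group, at 94.0.

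In the controls, replicate 3 stood apart for 3 of them. Its Etv5 share of the PEA3 sum was 16.5%, below the other controls. It also had the lowest Spry4, at 2.36, and the highest Ier3, at 108.

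With the Etv5 shRNA, replicate 3 was the lowest library for the other 8. Dusp6 was at 13.4, Spry4 at 1.03, Spry1 at 12.004, Lif at 3.24 and Mmp13 at 0.614. Among ETS genes Ets2 was at 14.3, Elk3 at 36.8 and Ets1 at 15.5. Etv5, Etv4 and Etv1 coverage values were not among the 11, although this library was the lowest of its group for Etv5 and Etv1.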

How the results depend on the processing

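The fold changes of Etv5, Etv4 and Etv1 were negative in all 20 fits, which reuse the same libraries. Leaving out 1 library gave −0.42 to −0.17 for Etv5, −0.36 to −0.26 for Etv4 and −0.51 to −0.15 for Etv1. With array weights, whose estimation stopped before it converged and which gave Etv5 shRNA replicate 3 a weight of 0.0265 and replicate 1 one of 10.7, Etv5 (−0.19, adjusted p = 0.0392) and Etv4 (−0.23, adjusted p = 0.0138) passed the limma threshold, as did 27.1% of all tested genes in that fit. The Etv4 difference in coverage value of −9.27 became −3.69 under median-of-ratios scaling (exact permutation p = 0.429) and ran from −10.9 to −7.93 without 1 library (exact p 0.0286 to 0.0571). The Etv5 to Etv4 log2 ratio turned to 0.021 with the length trend removed. Without 1 library, that ratio ran from −0.18 to 0.095, Etv5 to Etv1 from −0.015 to 0.20 and Etv1 to Etv4 from −0.31 to 0.11. The cause was not tested.

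Over all genes limma called 58 (57 lower, 1 higher), and between 28 and 368 without 1 library: 368 without Etv5 shRNA replicate 3, 37, 33 and 33 without Etv5 shRNA replicates 1, 2 and 4, and 32, 28, 35 and 30 without control replicates 1 to 4. A pseudocount of 0.1 gave 37 and array weights 3183 (1670 lower, 1513 higher). Removing the length trend gave 117 (94 lower, 23 higher). Added after the data were seen, removing length and GC trends gave 167 (126 lower, 41 higher), and the length trend without replicate 3 gave 936 (515 lower, 421 higher). Median-of-ratios scaling gave 49 lower and 7 higher and moved the median of all genes from −0.11 to 0.02; the fold changes of Etv5, Etv4 and Etv1 were then −0.18, −0.14 and −0.25.

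Replicate numbers are shared between groups. Deviations of same-numbered libraries correlated across genes at 0.549, 0.0924, 0.794 and 0.510, not all over 0.1, and control replicates 2 and 4 correlated best with another number, so the numbers were not taken as a pairing. With the replicate block limma called 51 genes, and the differences in coverage value of Etv5, Etv4 and Etv1 each had an exact sign-flip permutation p of 0.125, the smallest that 4 pairs can give, each gene being lower in 4 of 4 same-numbered pairs.

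Read depth is unknown, so weak differences cannot be given a counting error. The intervals for Etv5 include both no change and a reduction larger than that observed.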

Other observations

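The other Tribbles genes were not called by limma. Trib1 was at 20.9 ± 2.14 in controls and 13.3 ± 3.94 with the Etv5 shRNA (SD, n = 4 each), without overlap (limma adjusted p = 0.489, and 0.0668 without Etv5 shRNA replicate 3). Trib3 lay in the other direction, at 54.03 ± 7.54 and 68.9 ± 6.33, and the groups overlapped (limma adjusted p = 0.644). Jun, a partner of ETS factors at composite sites, was at 38.1 ± 1.64 in controls and 25.7 ± 8.69 with the Etv5 shRNA, without overlap (limma adjusted p = 0.637, and 0.0853 without replicate 3). Over 8 libraries 7.58% of tested genes separated downwards as Trib1 and Jun did.

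Among the epithelial markers Cdh1, the adhesion protein E-cadherin, was called higher by limma without replicate 3, at 63.3 ± 2.87 (SD, n = 3) against 38.5 ± 3.49 in controls (adjusted p = 0.00449). Over 8 libraries Cdh1 was not called (limma adjusted p = 0.806), and replicate 3 held 31.0, below every control. With the length trend removed over 8 libraries Cdh1 was called higher (limma adjusted p = 0.0229). These genes were singled out after their values were seen.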
